A study of Mus musculus with 6 samples.

Results

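Immunoglobulin variable gene segments are the germline pieces from which B cells assemble the antigen-binding ends of antibody chains, and 144 of them were followed in RNA from mouse colon 6 h after treatment with an interleukin-22 (IL-22) protein. The segments were chosen by symbol (Ighv, Igkv or Iglv followed by a number) and by a summed read count of at least 50 over the 6 libraries, so those sums are given only as a description. Of the 35275 genes in the deposited count table, 222 carried such a symbol and 144 reached the threshold: 74 of 114 heavy chain segments, 67 of 105 kappa light chain segments and 3 of 3 lambda light chain segments. The 144 segments held 91761 counts, 99.5% of all counts on variable segments, and the other 78 held 496, with 33 at 0 in every library. Just inside the threshold were Igkv3-10 with 51 counts, Igkv1-122 with 52 and Ighv1-43 with 52, of which 51 came from WT IL-22 replicate 1. Just outside it were Ighv14-4 and Igkv2-112 with 45 counts each and Igkv12-89 with 37.

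The colon came from C57BL/6 mice given 22-B3, an engineered IL-22 variant, at 200 µg per mouse (2 libraries), wild-type IL-22 (WT IL-22) at 200 µg per mouse (2 libraries), or phosphate-buffered saline (PBS, 2 libraries). The sources used here give neither sex, age nor the number of animals per library, and do not say whether libraries of a group came from separate animals. The p-values below thus reflect only how far these libraries vary, which may be technical. Libraries held 17428528 to 22081904 counts. The tissue was not sorted, so fewer cells of a type and less RNA per cell cannot be told apart.

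In each developing B cell, a heavy chain variable segment is joined to a diversity and a joining segment, and a light chain variable segment is joined to a joining segment, so that all descendants of that cell (a clone) transcribe the same heavy and light segments. Antibody-secreting plasma cells are the main antibody producers of the gut wall, where most of them make IgA, which is linked into dimers by the J chain and carried across the epithelium by the receptor Pigr. Segments of similar sequence form numbered families: Ighv1-82 and Ighv1-76 both belong to family Ighv1. In mice most antibodies carry a kappa light chain.

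The 3' ends of the segments that carried the most reads, or that passed the tests described below, are shown because this is the end that is joined to the rest of the antibody gene and ends in the start of CDR3, the loop at the centre of the antigen-binding site. They are germline coding sequences of GENCODE M21 (build GRCm38, the same assembly as mm10), written 5' to 3' on the coding strand, with capitals from the codon of the conserved cysteine to the end of the segment. Each gives the last 99 coding bases. The leading heavy segment of each library (the PBS libraries share theirs) and the heavy segments Ighv1-39 and Ighv1-54 read as follows.
Ighv9-3: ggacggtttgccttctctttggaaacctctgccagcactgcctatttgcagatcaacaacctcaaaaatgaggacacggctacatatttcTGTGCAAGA
Ighv9-1: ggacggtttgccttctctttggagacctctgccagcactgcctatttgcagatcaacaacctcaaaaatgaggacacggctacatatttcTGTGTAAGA
Ighv1-76: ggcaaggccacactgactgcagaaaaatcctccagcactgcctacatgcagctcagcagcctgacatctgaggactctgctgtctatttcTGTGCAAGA
Ighv3-6: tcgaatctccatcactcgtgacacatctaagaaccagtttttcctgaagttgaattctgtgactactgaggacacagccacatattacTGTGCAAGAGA
Ighv1-82: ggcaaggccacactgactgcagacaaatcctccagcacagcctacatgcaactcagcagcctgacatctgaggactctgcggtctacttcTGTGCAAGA
Ighv1-39: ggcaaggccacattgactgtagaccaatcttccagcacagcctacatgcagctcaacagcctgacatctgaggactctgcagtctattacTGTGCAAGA
Ighv1-54: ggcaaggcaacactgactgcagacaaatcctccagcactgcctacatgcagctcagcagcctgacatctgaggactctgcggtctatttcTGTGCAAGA

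The leading kappa segments, the kappa segments Igkv6-13 and Igkv2-109, and the leading lambda segment end as follows.
Igkv3-4: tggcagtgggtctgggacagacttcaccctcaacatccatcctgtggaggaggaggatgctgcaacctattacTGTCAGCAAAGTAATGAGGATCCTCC
Igkv17-121: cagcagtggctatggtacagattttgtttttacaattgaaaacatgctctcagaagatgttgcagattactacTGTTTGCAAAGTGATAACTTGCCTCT
Igkv4-57-1: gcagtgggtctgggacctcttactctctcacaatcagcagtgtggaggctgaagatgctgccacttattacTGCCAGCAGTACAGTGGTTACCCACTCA
Igkv5-43: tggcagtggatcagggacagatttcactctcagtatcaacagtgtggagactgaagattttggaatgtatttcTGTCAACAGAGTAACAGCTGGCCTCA
Igkv12-46: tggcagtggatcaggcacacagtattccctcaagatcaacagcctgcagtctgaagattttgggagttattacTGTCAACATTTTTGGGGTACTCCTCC
Igkv6-13: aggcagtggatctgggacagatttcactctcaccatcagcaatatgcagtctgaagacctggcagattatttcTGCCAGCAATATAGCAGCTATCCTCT
Igkv2-109: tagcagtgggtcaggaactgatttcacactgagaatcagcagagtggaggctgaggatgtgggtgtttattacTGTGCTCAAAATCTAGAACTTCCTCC
Iglv1: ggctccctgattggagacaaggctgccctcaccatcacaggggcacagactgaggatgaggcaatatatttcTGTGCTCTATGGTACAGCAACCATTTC

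A heavy segment contributes few bases after the cysteine, and a kappa or lambda segment contributes most of the loop. The 9-base string TGTGCAAGA, searched on the coding strand in the last 45 bases, was present in 48 of the 74 heavy segments (64.9%), and in 63 of all 115 heavy reference segments (54.8%). TATTACTGT was present in 30 of the 67 kappa segments (44.8%), and in 41 of all 100 kappa reference segments (41%). Many segments closely resemble another segment in sequence. Over the last 280 coding bases, the median identity of a segment to its nearest relative was 95.4%, 78 of the 144 were at 95% or more, and Ighv1-71 and Ighv1-62-2 were identical. Reads can be split between such relatives, and rearranged segments also carry somatic mutations, so counts of close relatives are uncertain, and the sources used here do not say how the counter handled such reads. Within Igkv4-55, counts can also come from Gm11143, which overlaps it on the opposite strand, since the sources used here do not give the strand setting.

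The libraries did not stand equally far from each other in these segments, which bears on every comparison below. The PBS libraries were nearly alike, and each other pair of libraries, within a group or across groups, differed in most segments. On log2 (count + 1) over the 144 segments, Pearson's r was 0.953 within the PBS pair and 0.246 to 0.509 in the other 14 pairs. Segments within a library are not independent replicates, and these correlations are given as a description. As the summed overlap of segment shares, the PBS pair shared 91.8% of its heavy and 94.8% of its kappa composition. The 22-B3 pair shared 43.8% and 44.5%, the WT IL-22 pair 42.6% and 49.9%, and pairs across groups 35.3% to 47.1% and 35.8% to 55.3%. In segment shares, libraries of the same treatment were thus no more alike than libraries of different treatments, apart from PBS.

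**Figure D1:**
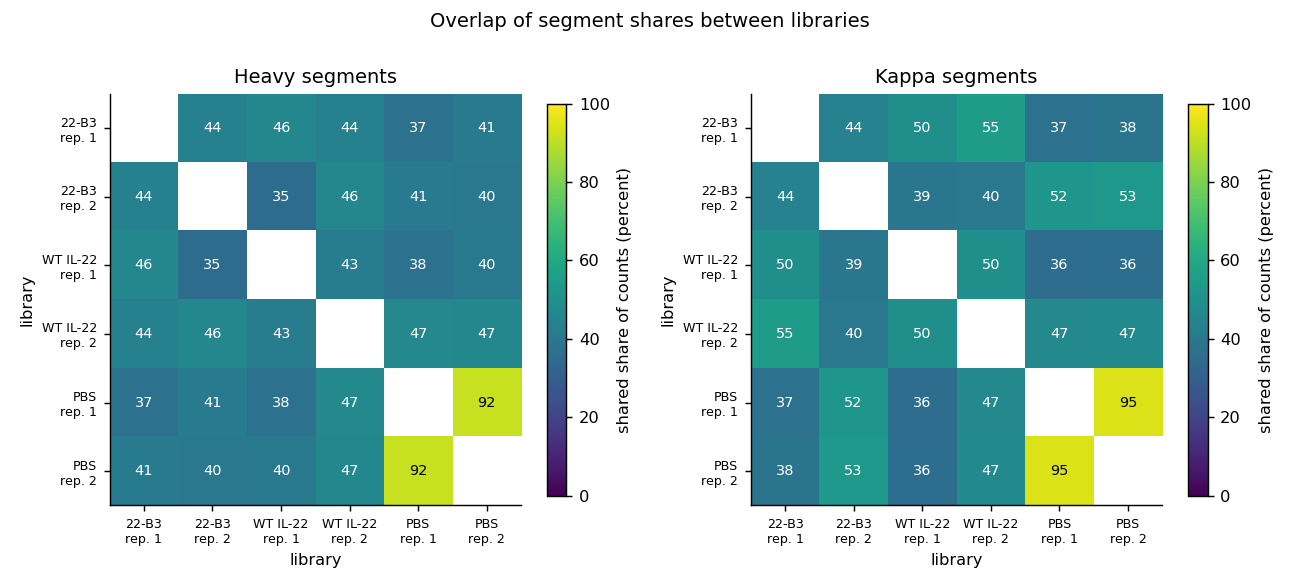
Overlap of segment shares between each pair of the 6 libraries, for the 74 heavy segments (left) and the 67 kappa segments (right). Each cell gives the percentage of counts shared by 2 libraries (colour scale 0 to 100 percent), and the PBS pair stands out at 91.8% and 94.8%.

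Counting noise alone did not cover the differences within the PBS pair. In that pair, 30 of 120 segments (25%) lay beyond the 5% point of chi-square, and 26.6% of the other genes did. In the other pairs 76.2% to 87.4% of segments and 46.7% to 69.2% of other genes did. Segments were scaled to the total of the segments and other genes to the library total, and count levels were not matched. The shares of segments and of other genes are thus not like measures. These shares cannot tell separate animals from 2 preparations of the same RNA. The PBS pair was kept as 2 libraries, and each count of changes is repeated after adding the pair up to 1 library (pooled PBS).

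Between the 2 libraries of a group, the segments varied far more than other genes with both treatments. Of the 136 segments that passed the filter on low counts, 62 (45.6%) were at least 4-fold apart between the 22-B3 libraries and 56 (41.2%) between the WT IL-22 libraries, against 2 (1.47%) between the PBS libraries. Among the other 15492 genes tested the shares were 0.633%, 0.355% and 0.219% in the same order. The median absolute log2 difference within a group was 1.79 after 22-B3, 1.55 after WT IL-22 and 0.34 after PBS for the segments, and 0.31, 0.23 and 0.11 for the other genes. The fitted biological coefficient of variation had a median of 54.5% over the segments and 15.1% over the other genes.

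**Figure D2:**
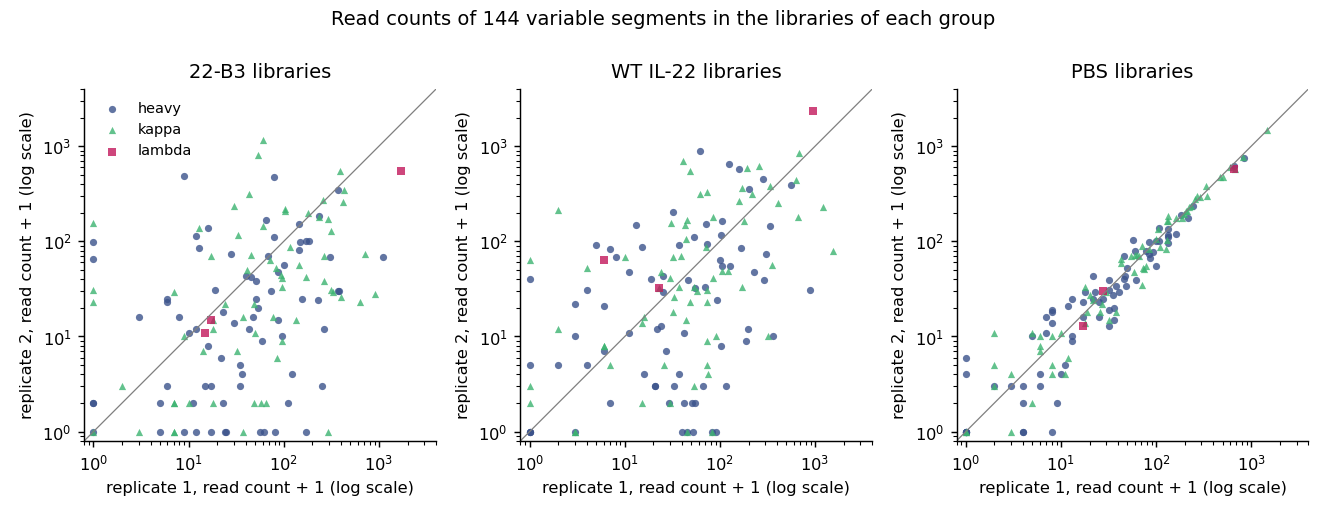
Read counts (count + 1, log scale on both axes) of the 144 variable segments in replicate 1 (x axis) and replicate 2 (y axis) of the 22-B3, WT IL-22 and PBS groups; each point is a segment, with symbols for heavy, kappa and lambda. Points scatter widely with both proteins and follow the diagonal after PBS, where r on log2 (count + 1) was 0.953.

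Single libraries supplied most of the reads of many segments. For 47 of the 144, at least 50% of the CPM (counts scaled to library size) summed over the libraries came from 1 library: 12 and 7 in the 22-B3 libraries, 16 and 9 in the WT IL-22 libraries, and 2 and 1 in the PBS libraries. The 2 PBS libraries resemble each other, so a segment high in that group has its reads divided between them. With a presence threshold of 10 counts, 57 segments were present in all 6 libraries and 8 in only 1, the 8 being limited by the rule on summed counts.

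Among the heavy segments, every library outside PBS had a different leader. Ighv9-3 led in 22-B3 replicate 1 with 1104 counts, 16.7% of its heavy counts, and had 68 counts in 22-B3 replicate 2, 99 and 62 in the WT IL-22 libraries and 45 and 69 in the PBS libraries. Ighv9-1 led in 22-B3 replicate 2 with 487 counts (13.0%), and had 8 in 22-B3 replicate 1, 5 and 6 after WT IL-22 and 8 and 1 after PBS. Each was thus high in 1 22-B3 library and low in the other 5.

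Ighv1-76 led in WT IL-22 replicate 1 with 890 counts (13.6%), against 30 in WT IL-22 replicate 2, 369 and 29 after 22-B3 and 56 and 102 after PBS. Ighv3-6 led in WT IL-22 replicate 2 with 891 counts (15.3%), against 61 in WT IL-22 replicate 1, 145 and 81 after 22-B3 and 85 and 66 after PBS. The PBS libraries shared Ighv1-82 as their leader, with 834 (17.7%) and 750 (17.1%) counts, and it had 183 and 101 counts after 22-B3 and 123 and 647 after WT IL-22. Per length, Ighv1-82 had the highest mean of the heavy segments over the 6 libraries, 74.9 FPKM (fragments per kilobase of gene, scaled to the library total), while the median over the 144 segments was 7.96 FPKM.

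Next in rank, Ighv1-66 (382 counts) and Ighv7-3 (370) followed in 22-B3 replicate 1, and Ighv1-18 (474) and Ighv7-3 (344) in replicate 2. In the WT IL-22 libraries, Ighv1-26 (557) and Ighv1-12 (357) followed in replicate 1, and Ighv1-82 (647) and Ighv7-3 (576) in replicate 2. Both PBS libraries had Ighv1-39 (663 and 624) and Ighv1-26 (246 and 236) in the next places. Ighv7-3 was thus among the first 3 in both 22-B3 libraries and in 1 WT IL-22 library, and stood at 40 and 28 counts after PBS.

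Within groups, the evenness of the heavy segments differed most between the 2 WT IL-22 libraries. The effective number of heavy segments, which counts equally used segments that would give the same evenness, was 19.3 and 17.4 after 22-B3, 21.5 and 14.9 after WT IL-22 and 14.9 and 15.3 after PBS. The 10 leading heavy segments held 55.6% and 60.8% of the heavy counts after 22-B3, 55.6% and 68.3% after WT IL-22 and 60.2% and 59.0% after PBS.

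The kappa segments followed the same pattern. Igkv3-4 led in 22-B3 replicate 1 with 902 counts (10.05% of its kappa counts), and had 27 counts in replicate 2, 6 and 4 after WT IL-22 and 7 and 4 after PBS, so that 95.5% of its summed CPM came from that library. Igkv17-121 led in 22-B3 replicate 2 with 1155 counts (17.1%), against 59 in replicate 1, 71 and 87 after WT IL-22 and 62 and 71 after PBS. Igkv4-57-1 led in WT IL-22 replicate 1 with 1561 counts (16.4%), against 78 in replicate 2, 327 and 28 after 22-B3 and 25 and 17 after PBS. Each of the 3 was far higher in its own library than in the partner library of the same group.

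Igkv5-43 led in WT IL-22 replicate 2 with 854 counts (9.89%) and was also high in replicate 1 (678), against 236 and 178 after 22-B3 and 268 and 297 after PBS. Both PBS libraries were led by Igkv12-46, with 1476 (15.4%) and 1467 (15.5%) counts, against 53 and 812 after 22-B3 and 61 and 310 after WT IL-22. Per length, Igkv12-46 was the highest kappa segment at a mean of 102 FPKM, ahead of Igkv10-94 at 64.8, Igkv10-96 at 63.8, Igkv5-43 at 59.2 and Igkv14-111 at 51.0 FPKM. The effective number of kappa segments was 23.9 and 14.9 after 22-B3, 15.0 and 21.4 after WT IL-22 and 18.1 and 18.4 after PBS.

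Next in rank among the kappa segments were Igkv6-17 (718 counts) and Igkv3-5 (631) in 22-B3 replicate 1, and Igkv12-46 (812) and Igkv8-24 (549) in 22-B3 replicate 2. In the WT IL-22 libraries these places went to Igkv10-96 (1204) and Igkv5-43 (678) in replicate 1, and to Igkv3-5 (704) and Igkv1-110 (626) in replicate 2. After PBS they went to Igkv10-94 (817) and Igkv14-111 (683) in replicate 1, and to Igkv10-94 (766) and Igkv6-13 (610) in replicate 2. Igkv3-5 was thus high in 1 library of each treated group, and it had 22 counts in 22-B3 replicate 2, 40 in WT IL-22 replicate 1 and 17 and 13 after PBS.

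Lambda reads came almost wholly from Iglv1, which held 93.3% to 98.3% of them in each library. Iglv1 had 1707 and 545 counts after 22-B3, 962 and 2341 after WT IL-22 and 662 and 570 after PBS, and at a mean of 162 FPKM it was the highest of the 144 segments. Its nearest relative, Iglv2, is 97.5% identical over the 280 bases compared and had at most 63 counts in a library, and Iglv3 had at most 31. Lambda segments made up 16.2% and 7.79% of light chain segment counts after 22-B3, 9.41% and 22.0% after WT IL-22 and 6.87% and 6.07% after PBS. Each treated group thus held a library with a high and a library with a lower lambda share, and both PBS libraries lay below all 4.

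Family shares overlapped more between libraries than segment shares did. In the 14 pairs other than PBS, the overlap was 68.8% to 86.9% for heavy and 58.4% to 75.4% for kappa families. It was 97.7% and 98.6% in the PBS pair. Of the 14, the 22-B3 pair had the highest heavy overlap (86.9%) but 63.0% for kappa. The WT IL-22 pair had the highest kappa overlap (75.4%) but 71.2% for heavy. The large family Ighv1, with 39 of the 74 heavy segments, took 55.0% and 47.5% of heavy counts after 22-B3, 77.9% and 51.2% after WT IL-22 and 67.1% and 67.2% after PBS. Family Ighv9 took 17.004% and 14.9% after 22-B3, 2.90% and 1.24% after WT IL-22 and 1.64% and 1.98% after PBS. It was high in both 22-B3 libraries through different segments, Ighv9-3 at 98.0% of the family in replicate 1 and Ighv9-1 at 87.7% in replicate 2. These 2 segments are 92.9% identical over the 280 bases compared and differ at 2 of the 99 bases printed above.

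Ighv7 took 5.90% and 11.1% of heavy counts after 22-B3, 2.47% and 10.3% after WT IL-22 and 2.49% and 2.44% after PBS. Ighv3 reached 16.6% in WT IL-22 replicate 2 through Ighv3-6 and lay between 1.65% and 4.57% in the other 5 libraries. The other 9 heavy families stayed under 10% in every library.

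Among kappa families, Igkv4, with 17 segments, took 15.8% and 12.2% of kappa counts after 22-B3, 24.4% and 18.0% after WT IL-22 and 16.2% and 16.3% after PBS. Igkv6 ranged from 11.7% to 20.8% over the 6 libraries and Igkv10 from 6.62% to 16.1%. These 3 families were thus well represented in every library.

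Igkv12 took 1.92% and 13.3% after 22-B3, 3.45% and 8.04% after WT IL-22 and 20.5% and 20.5% after PBS. Igkv17 reached 17.5% in 22-B3 replicate 2 and was under 2% elsewhere, and Igkv3 reached 19.7% in 22-B3 replicate 1 and 10.8% in WT IL-22 replicate 2 and was at most 2.26% elsewhere. Igkv5 took 4.19% and 4.29% after 22-B3, 14.0% and 15.7% after WT IL-22 and 4.06% and 4.12% after PBS, and Igkv8 took 9.27% and 13.4%, 3.84% and 3.10%, and 8.77% and 8.79% in the same order. In Igkv5 and Igkv8 the WT IL-22 pair stood apart from the other 4 libraries. Igkv1 ranged from 3.41% after PBS to 12.1% in WT IL-22 replicate 2.

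**Figure D3:**
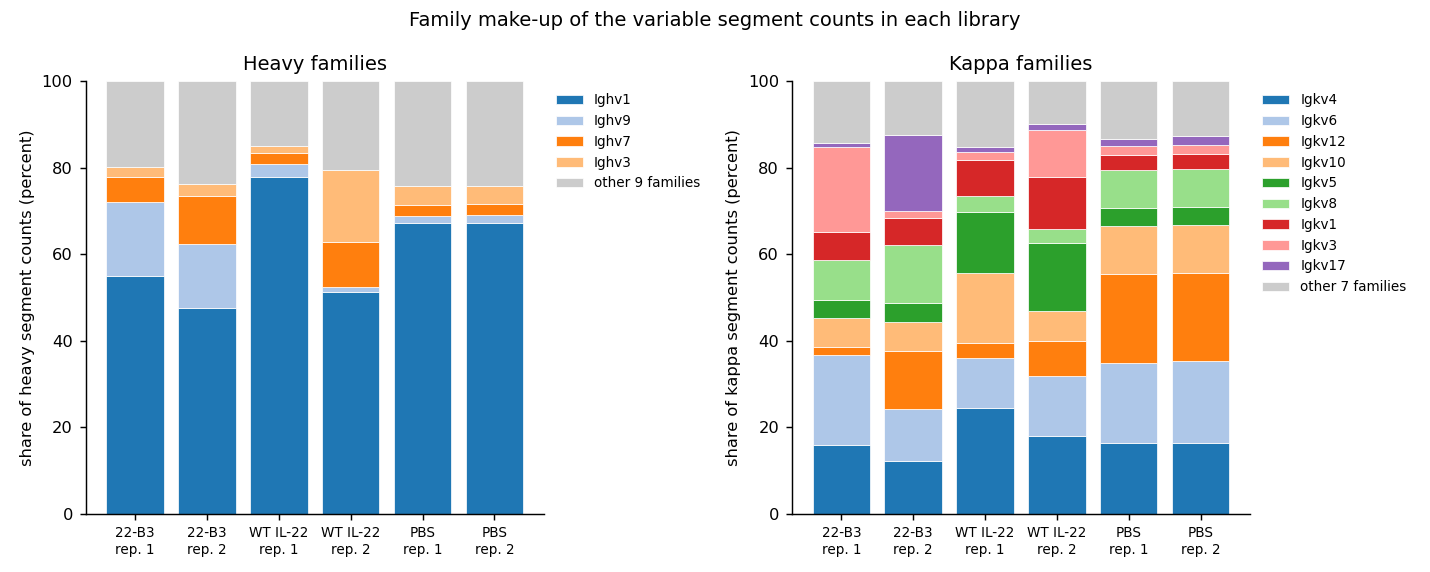
Family make-up of heavy (left) and kappa (right) segment counts in each library, as stacked shares that add to 100 percent; families that reach 10 percent in some library are named and the others are grouped. Ighv9 is wide in both 22-B3 bars (17.004% and 14.9%), Igkv5 in both WT IL-22 bars (14.0% and 15.7%), and the PBS bars are almost the same.

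Summed over each locus, the segments did not pass the test between any of the groups. In TMM-scaled CPM, the heavy segments summed to 372 and 208 after 22-B3, 306 and 258 after WT IL-22 and 242 and 229 after PBS, the 22-B3 libraries lying on both sides of the other groups' means. The log2 change of the heavy sum was 0.30 (95% interval -0.26 to 0.86, edgeR adjusted p = 0.53) for 22-B3 against PBS, 0.26 (-0.29 to 0.82, adjusted p = 0.476) for WT IL-22 against PBS and 0.04 (-0.52 to 0.60, adjusted p = 0.969) for 22-B3 against WT IL-22. Without 22-B3 replicate 2 the change against PBS was 0.66 and passed (edgeR adjusted p = 0.0187), and without 22-B3 replicate 1 it was -0.20 (adjusted p = 0.53).

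The kappa segments summed to 504 and 375 CPM after 22-B3, 445 and 384 after WT IL-22 and 491 and 492 after PBS. Their log2 change was -0.16 (-0.58 to 0.26, edgeR adjusted p = 0.664) for 22-B3 against PBS, -0.25 (-0.67 to 0.17, adjusted p = 0.376) for WT IL-22 against PBS and 0.08 (-0.34 to 0.50, adjusted p = 0.899) for 22-B3 against WT IL-22. Lambda sums were 97.4 and 31.7 CPM after 22-B3, 46.2 and 108 after WT IL-22 and 36.2 and 31.8 after PBS, with log2 changes of 0.92, 1.18 and -0.26 in the same order of comparisons (edgeR adjusted p = 0.395, 0.165 and 0.89). No unadjusted p of these 9 tests was under 0.05, and DESeq2 gave adjusted p of 0.378 to 0.988 for the heavy and kappa sums. In the same fit 1.1%, 17.2% and 0.0774% of all rows passed for the 3 comparisons in that order.

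**Figure D4:**
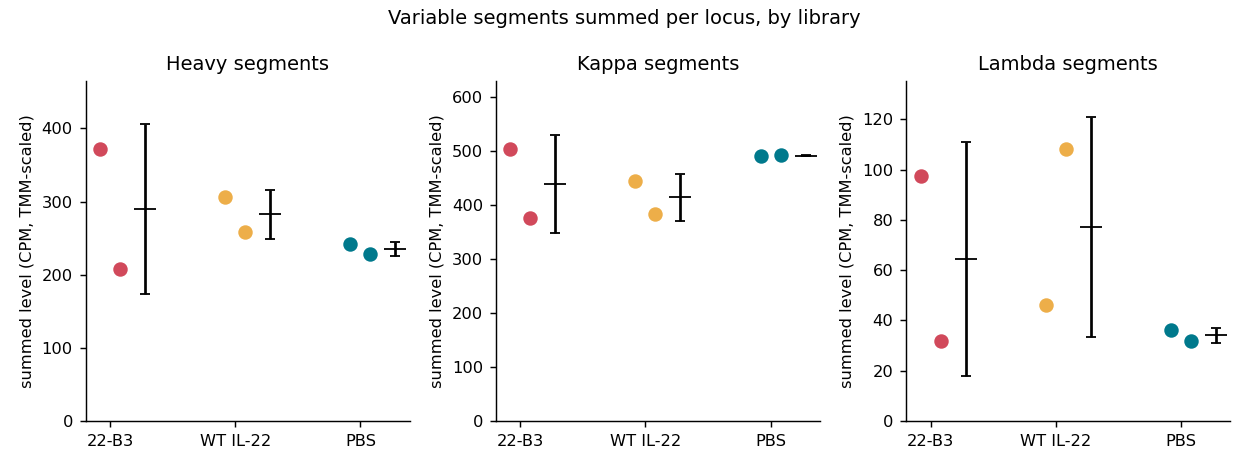
Summed level of heavy, kappa and lambda variable segments in each library, in TMM-scaled CPM, with the mean and SD of the 2 libraries of a group beside the points. The PBS points lie close together in all 3 panels, and 22-B3 points range from 208 to 372 CPM for heavy and from 31.7 to 97.4 CPM for lambda.

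The ratio of kappa to heavy segment counts was 1.35 and 1.80 after 22-B3, 1.45 and 1.49 after WT IL-22 and 2.03 and 2.15 after PBS, so that PBS lay above the other 4 libraries. Relative to the constant genes of their own chain, heavy and kappa segment counts varied little between libraries. Heavy segment counts were 0.293 and 0.300 per heavy constant count after 22-B3, 0.281 and 0.332 after WT IL-22 and 0.283 and 0.302 after PBS, and kappa segment counts were 1.0005 and 0.961, 0.973 and 0.971, and 0.890 and 0.968 per count of Igkc, the kappa constant gene, in the same order. Iglc2, the lambda constant gene measured, had 126 and 49 counts after 22-B3, 96 and 108 after WT IL-22 and 128 and 97 after PBS, far below those of Iglv1. Which constant gene the Iglv1 transcripts carried was not tested, so no ratio of Iglv1 to Iglc2 is read from these counts. Iglc1 and Iglc3, the other lambda constant genes looked for, were absent by these symbols from the deposited counts. Any reads of those genes are thus left out. Igha, the constant gene of IgA, held 93.2% to 96.0% of the heavy constant counts in each library.

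Between 22-B3 and PBS, 6 segments rose and 7 fell among the 136 tested (9.56%). Of all 15628 genes tested, 0.947% rose and 0.154% fell, 1.1% in all. Of the heavy segments 3 rose and 1 fell, of the kappa segments 3 rose and 6 fell, and edgeR called 0 lambda segments, with 0 at an unadjusted p under 0.05 and 0 by DESeq2, which gave an adjusted p for 1 of the 3. The median absolute log2 change was 1.68 over the 136 segments and 0.26 over all genes. In every called segment the 22-B3 and PBS libraries did not overlap. The call and this separation rest on the same counts, so the separation adds no support. Its share over all genes was not counted. The 8 segments left out by the filter on low counts included Ighv9-1, the leading heavy segment of 22-B3 replicate 2. Ighv9-3 and Igkv3-4, the leaders of 22-B3 replicate 1, had fitted log2 changes of 3.47 and 6.49 that did not pass (edgeR adjusted p = 0.32 and 0.256).

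The largest called fall was in Ighv1-39, with 8 and 0 counts in the 22-B3 libraries, 21 and 11 in the WT IL-22 libraries and 663 and 624 in the PBS libraries. It fell by 7.18 on the log2 scale (SE 0.565, edgeR adjusted p = 0.00141, or 0.0265 after pooling PBS). Igkv6-13 had 17 and 14 counts after 22-B3, 2 and 0 after WT IL-22 and 597 and 610 after PBS, and fell by 5.16 after 22-B3 (SE 0.301, adjusted p = 0.000383, or 0.00517 after pooling). Both segments were among the most used of the PBS libraries and nearly missing from the other 4.

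Igkv14-126 fell by 4.94, Igkv12-44 by 2.94 and Igkv6-23 by 2.10 on the log2 scale (by edgeR, adjusted p = 0.00486, 0.00503 and 0.00688), and each lost its call with pooled PBS (adjusted p = 0.059, 0.0658 and 0.0794). The close relatives Igkv6-13 and Igkv6-23 are 96.1% identical over 280 bases. Igkv10-94, the second kappa segment of the PBS libraries, had 179 and 198 counts after 22-B3, 334 and 377 after WT IL-22 and 817 and 766 after PBS. It fell by 1.96 after 22-B3 and kept its call with pooled PBS, as only Ighv1-39 and Igkv6-13 did besides.

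Under the same count rule, Ighv7-3 had the largest called rise, with 370 and 344 counts after 22-B3, 157 and 576 after WT IL-22 and 40 and 28 after PBS. It rose by 3.50 after 22-B3 (SE 0.575, edgeR adjusted p = 0.0399, or 0.53 after pooling PBS). Ighv1-54 rose by 3.29, Igkv5-39 by 2.94, Igkv6-15 by 2.69 and Igkv1-117 by 2.42 on the log2 scale (adjusted p = 0.00427, 0.0493, 0.00513 and 0.0193). With pooled PBS, 0 segments rose, 3 fell, 35 had an unadjusted p under 0.05, and of all genes 0.0128% rose and 0.0192% fell, 0.032% in all. On dropping either PBS library edgeR called 0 higher and 3 lower, with 34 at an unadjusted p under 0.05. Dropping 22-B3 replicate 1 gave 10 and 16, and dropping 22-B3 replicate 2 gave 19 and 18. Dropping WT IL-22 replicate 1 gave 7 and 15, and dropping WT IL-22 replicate 2 gave 8 and 14.

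WT IL-22 against PBS called more segments, 15 higher and 20 lower of 136 (25.7%). Of all genes tested, 9.9% rose and 6.74% fell, 16.6% in all. Of the heavy segments 7 rose and 8 fell, of the kappa segments 8 rose and 12 fell, and edgeR called 0 lambda segments, with 0 at an unadjusted p under 0.05 and 0 by DESeq2, which gave an adjusted p for 1 of the 3. The median absolute log2 change was 1.83 over the 136 segments and 0.38 over all genes. In each of the 35, the WT IL-22 libraries did not overlap the PBS libraries, which again adds no support to the calls. The share of all genes separated in this way was not counted. The leader of WT IL-22 replicate 1, Igkv4-57-1, had a fitted log2 change of 5.13 that did not pass (edgeR adjusted p = 0.219). The PBS libraries are the same as in the comparison above, so the 2 sets of calls are not independent.

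Igkv6-13, with 2 counts in all after WT IL-22 and 1207 after PBS, was 685-fold lower (95% interval of the counting error alone 189 to 5662, edgeR adjusted p = 3.9e-05, or 0.000389 after pooling PBS). Fitted log2 changes of segments so near 0 depend on the prior count, so this ratio is given in their place. Igkv4-79 had 84 and 5 counts after 22-B3, 0 and 2 after WT IL-22 and 59 and 71 after PBS, and was 73.8-fold lower after WT IL-22 (20.02 to 616, adjusted p = 0.0315, or 0.198 after pooling). Ighv1-39 fell by 5.50 on the log2 scale (SE 0.469, adjusted p = 0.000593, or 0.0103 after pooling).

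Ighv3-1 had 5 and 22 counts after 22-B3, 1 and 4 after WT IL-22 and 83 and 72 after PBS, and fell by 5.06 after WT IL-22 (edgeR adjusted p = 0.00503, or 0.0356 after pooling PBS). Igkv2-109 had 292 and 170 counts after 22-B3, 1 and 11 after WT IL-22 and 134 and 184 after PBS, and fell by 4.89 after WT IL-22 (SE 0.586, adjusted p = 0.00222, or 0.0166 after pooling). Igkv2-109 was low in the WT IL-22 libraries only, in contrast to Igkv6-13 and Ighv1-39, which were high in the PBS libraries only.

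Among the rises, Ighv5-4 had 7 and 15 counts after 22-B3, 53 and 111 after WT IL-22 and 2 and 2 after PBS, and rose by 5.08 after WT IL-22 (SE 0.652, edgeR adjusted p = 0.00283, or 0.0337 after pooling PBS). Ighv8-5, with 115 counts in all after WT IL-22 and 3 after PBS, was 33.8-fold higher (11.3 to 166, adjusted p = 0.0401, or 0.214 after pooling). Igkv14-100 had 9 and 1 counts after 22-B3, 42 and 147 after WT IL-22 and 4 and 1 after PBS, and rose by 4.97 (adjusted p = 0.0119, or 0.0873 after pooling). All 3 were minor segments of the PBS libraries.

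Igkv4-91 rose by 3.41 and Ighv7-3 by 3.23 after WT IL-22 (edgeR adjusted p = 0.00995 and 0.0124, or 0.0728 and 0.15 after pooling PBS). With pooled PBS, 4 segments rose and 7 fell (8.09%), and of all genes 0.825% rose and 0.186% fell, 1.01% in all. The 11 were all among the 35: Ighv1-53, Ighv1-64, Ighv5-4 and Igkv6-15 were higher, and Ighv1-39, Ighv1-54, Ighv3-1, Igkv2-109, Igkv6-13, Igkv10-94 and Igkv14-126 were lower. On dropping PBS replicate 1, 4 rose and 7 fell, on dropping PBS replicate 2, 2 rose and 7 fell, and on dropping either 22-B3 library, 26 rose and 33 fell.

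Between 22-B3 and WT IL-22, 2 segments rose and 1 fell among the 136 tested (2.21%). Of all genes tested, 0.032% rose and 0.0704% fell, 0.102% in all. Their median absolute log2 change was 1.37, beside 0.20 over all genes. Ighv1-54 had 234 and 183 counts after 22-B3, 2 and 0 after WT IL-22 and 24 and 22 after PBS. It was 256-fold higher after 22-B3 than after WT IL-22 (70.4 to 2119, edgeR adjusted p = 0.00164, or 0.00377 after pooling PBS). Against PBS the same segment rose after 22-B3, as given above, and was 26.1-fold lower after WT IL-22, with 2 counts in all against 46 (6.83 to 222, edgeR adjusted p = 0.00498, or 0.0316 after pooling PBS).

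Igkv2-109 rose by 5.54 after 22-B3 relative to WT IL-22 (SE 0.581, edgeR adjusted p = 0.0188, or 0.0366 after pooling PBS). Igkv5-43, the leading kappa segment of WT IL-22 replicate 2, fell by 1.59 after 22-B3 relative to WT IL-22 (SE 0.194, adjusted p = 0.029, or 0.0889 after pooling). With pooled PBS, 2 segments rose, edgeR called 0 lower, 31 had an unadjusted p under 0.05, and of all genes 0.0128% rose and 0.0128% fell, 0.0256% in all. On dropping 22-B3 replicate 1, 12 rose and 13 fell, and on dropping 22-B3 replicate 2, 10 rose and 4 fell. On dropping either PBS library 2 rose and edgeR called 0 lower, with 31 at an unadjusted p under 0.05.

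**Figure D5:**
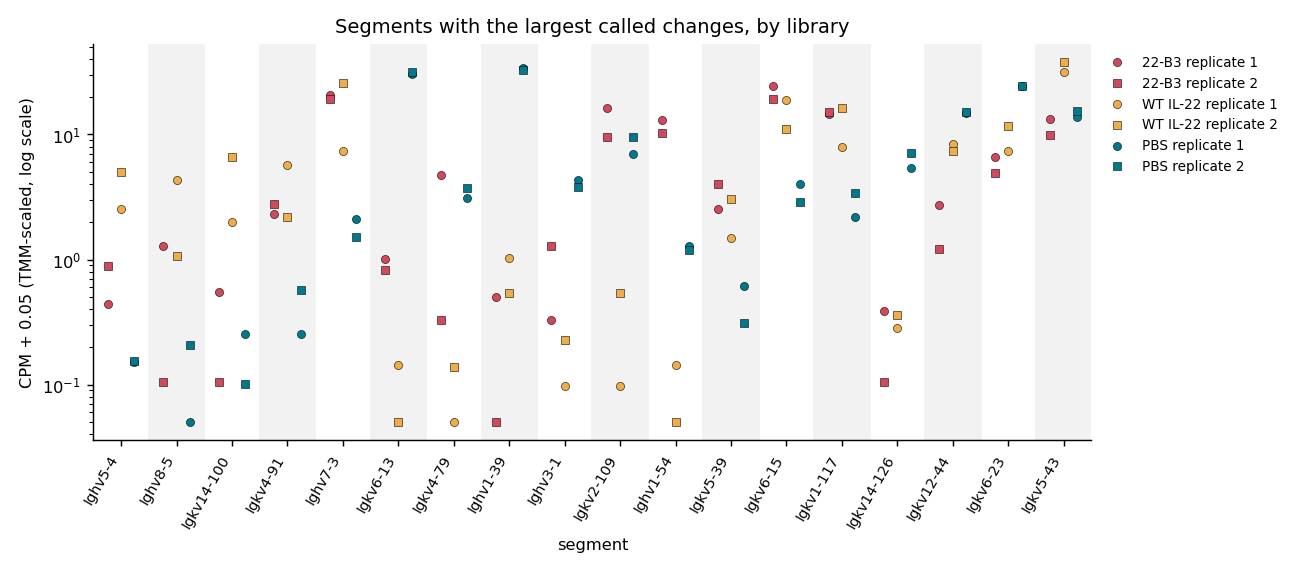
TMM-scaled CPM plus 0.05 (log scale) of the 18 segments with the largest called changes, in each of the 6 libraries; colours give the group and symbols the replicate. For Igkv6-13 and Ighv1-39 the 2 PBS points lie above all others, and for Ighv1-54 the 2 22-B3 points do.

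With reads summed per family, 30 families were tested. Between 22-B3 and PBS 1 rose and 1 fell (1.02% of all rows passed). Ighv9 had 63.2 and 30.9 CPM after 22-B3, 8.88 and 3.20 after WT IL-22 and 3.95 and 4.53 after PBS, and rose by 3.47 on the log2 scale (SE 0.476, edgeR adjusted p = 0.0133). Ighv14 had 2.69 and 1.67 CPM after 22-B3, 2.99 and 3.47 after WT IL-22 and 8.58 and 6.87 after PBS, and fell by 1.82 (SE 0.294, adjusted p = 0.0255). Neither passed with pooled PBS (adjusted p = 0.196 and 0.209).

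For WT IL-22 against PBS, 4 families rose and 4 fell (17% of all rows passed). Igkv5 rose by 1.61 on the log2 scale, Ighv5 by 1.39, Igkv1 by 1.30 and Igkv13 by 2.13, and Igkv2 fell by 2.76, Igkv8 by 1.57, Ighv14 by 1.26 and Ighv2 by 1.24. Igkv2, Igkv5 and Igkv8 also passed with pooled PBS (edgeR adjusted p = 0.00961, 0.0294 and 0.0294). The same 3 families passed for 22-B3 against WT IL-22 (0.116% of all rows passed). Igkv2 had 18.0 and 22.5 CPM after 22-B3, 1.40 and 2.27 after WT IL-22 and 11.1 and 13.8 after PBS, and rose by 3.46 after 22-B3 relative to WT IL-22 (adjusted p = 0.00341, or 0.00632 after pooling PBS). In Igkv2 the family was led by Igkv2-109 in 22-B3 replicate 1 (91.0% of it) and by Igkv2-137 in 22-B3 replicate 2 (58.0%), where Igkv2-109 was also high with 170 counts, against 235 of Igkv2-137. Igkv8 rose by 1.74 and Igkv5 fell by 1.72 in that comparison (adjusted p = 0.0164 and 0.0128, or 0.0513 and 0.0456 after pooling). On leaving out each library in turn, the highest adjusted p was 0.0149 for Igkv2, 0.0494 for Igkv5 and 0.0691 for Igkv8 in that comparison, and 0.0145, 0.0328 and 0.0325 for WT IL-22 against PBS.

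Markers of the cells that transcribe these segments were present in every library. The 9 plasma cell genes summed to 901 and 857 CPM after 22-B3, 946 and 1021 after WT IL-22 and 1038 and 1019 after PBS, and 10 B cell genes to 47.4 and 11.9, 30.2 and 45.7, and 63.3 and 64.2 CPM in the same order. Most of the plasma cell sum came from Igj, the J chain gene (300 to 492 CPM), Sdc1 (232 to 270) and Xbp1 (250 to 394). The tissue was not sorted, and which cells gave the Sdc1 and Xbp1 reads was not tested. The sum is thus not a measure of plasma cells alone. The 8 epithelial markers of colon summed to 5692 to 7158 CPM. No gene of these lists was at 0 in every library. 22-B3 replicate 2, the library with the fewest segment counts (11043, against 14454 to 17344 in the other 5), also had the lowest B cell sum, and their part in the results above was not tested.

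Of the 9 plasma cell genes 1 fell after WT IL-22 relative to PBS, where 6.74% of all genes fell and 9.9% rose: Igj, which encodes the J chain, averaged 327 ± 28.5 CPM after WT IL-22 and 482 ± 8.02 CPM after PBS (SD, n = 2 each; edgeR adjusted p = 0.0427, or 0.277 after pooling PBS). Igj averaged 337 ± 27.7 CPM after 22-B3 (adjusted p = 0.154 against PBS). In the comparison of WT IL-22 with PBS, 4 of the 9 had an unadjusted p under 0.05 and DESeq2 called 2. Xbp1, a transcription factor of secretory cells, averaged 365 ± 31.0 CPM after WT IL-22 and 256 ± 11.4 CPM after PBS. Its log2 change was 0.51 (edgeR adjusted p = 0.0531, or 0.312 after pooling PBS, and DESeq2 adjusted p = 0.0114). Prdm1, a plasma cell transcription factor, was 0.94 higher on that scale and did not pass (adjusted p by edgeR = 0.084). Mzb1 was 0.55 lower and did not pass either (edgeR adjusted p = 0.112). Xbp1 and Prdm1 were the only plasma cell genes of the list with a rise in this comparison, and the median log2 change of the 9 was -0.14. Of the 10 B cell genes edgeR called 0 in each comparison, with 2 at an unadjusted p under 0.05 for 22-B3 against PBS, 2 for WT IL-22 against PBS and 0 for 22-B3 against WT IL-22, where DESeq2 called 2, 1 and 0. Their median log2 changes were -1.03, -0.73 and -0.31 in that order, and each of the 10 was lower in both treated groups than after PBS. Of the 9 constant genes found 8 were tested and edgeR and DESeq2 called 0, with 1, 0 and 0 at an unadjusted p under 0.05 in the same order. Igha averaged 941 ± 390 CPM after 22-B3, 887 ± 223 after WT IL-22 and 750.0 ± 63.1 after PBS, and Igkc 447 ± 79.9, 426 ± 43.8 and 529.8 ± 30.8 in the same order.

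Of 6 genes of IgA transport and B cell support, 2 fell after WT IL-22 relative to PBS: Ccl28, an epithelial chemokine for IgA plasma cells, and Tnfsf13, the B cell survival factor APRIL. Ccl28 averaged 70.5 ± 0.596 CPM after WT IL-22 and 142 ± 4.78 CPM after PBS, and Tnfsf13 5.36 ± 0.737 and 10.3 ± 1.05 (edgeR adjusted p = 0.00691 and 0.0209, or 0.0909 and 0.164 after pooling PBS). Of other cell types, 1 of 8 T cell, 3 of 6 macrophage and 2 of 5 smooth muscle genes fell after WT IL-22, and of 8 epithelial genes 1 rose and 1 fell. Of 4 germinal centre genes tested 1 rose, Mybl1. Over all genes 6.74% fell and 9.9% rose in that comparison (16.6% in all), so that 1 called gene in lists of this size lies near the background. For 22-B3, edgeR called 0 of the 64 genes tested on these lists against PBS (12 at an unadjusted p under 0.05, 3 called by DESeq2) and 0 against WT IL-22 (6, and 0 by DESeq2). With pooled PBS it called 0 genes of any list in any comparison, with 2 for 22-B3 against PBS, 12 for WT IL-22 against PBS and 3 for 22-B3 against WT IL-22 at an unadjusted p under 0.05.

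The level of a segment was weakly related to its distance from the constant gene among the heavy segments, and hardly at all among the kappa segments. The heavy segments lie on chromosome 12, all on the minus strand, from Ighv2-2 (113588267 to 113588700, mm10), 168 kb from Ighm, to Ighv1-85 (116000028 to 116000461), 2579 kb away. Kappa segments lie on chromosome 6, 27 on the plus and 40 on the minus strand, from Igkv3-1 (70703578 to 70704177), 22.7 kb from Igkc, to Igkv2-137 (67555636 to 67556216), 3171 kb away. Spearman's rho of the distance to the constant gene with the mean FPKM was 0.24 over the 74 heavy segments and -0.04 over the 67 kappa segments, as a description across segments of the same libraries.

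The 25 heavy segments nearest to Ighm held 30.3% and 40.5% of heavy counts after 22-B3, 15.7% and 37.2% after WT IL-22 and 19.1% and 18.8% after PBS. For kappa, the 22 segments nearest to Igkc held 49.8% and 27.2%, 17.4% and 27.8%, and 29.7% and 30.0% in the same order. Plus-strand kappa segments, which lie in the same orientation as Igkc, whereas minus-strand ones are joined by inverting the DNA between, held 47.0% and 37.5% of kappa counts after 22-B3, 28.8% and 43.6% after WT IL-22 and 25.6% and 25.8% after PBS. All 4 treated libraries thus lay above PBS in the plus-strand share, and both 22-B3 libraries did in the share of the nearest heavy segments. The WT IL-22 libraries lay on both sides of PBS in that heavy share.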

How the data were processed

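RNA-seq was read from the deposited tables of 6 libraries (3 groups of 2; groups from the labels). Per the labels' protocols, libraries were made from column-purified RNA of frozen colon, enriched for mRNA. STAR 2.5 and mm10 are in the submitters' processing notes, and the sources used here name no counter, annotation release or strand setting. The deposited counts are whole-number reads per gene, not normalized, as the file headers and values show. The authors' deposited FPKM equal these counts divided by gene length and column total (relative deviation at most 4.97e-12).

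Counts were analysed in R 4.3.3 with edgeR 4.0.16: filterByExpr on the groups (15628 genes, 136 of the 144 segments), TMM scaling, 1 mean per group over all 6 libraries, the robust quasi-likelihood test and Benjamini-Hochberg adjustment over all genes tested, with a threshold of 0.05. Sums per locus (15495 rows) and per family (15522 rows) replaced the segments in the same fit on the whole table. DESeq2 1.42.0 was an alternative, as were other scalings, filters, membership thresholds, samples in the fit, a replicate block, pooled PBS (its libraries summed), and each library left out. The test was tested on simulated data with known changes. Intervals marked as counting error are exact conditional intervals at 95% and cover counting error only. Library totals were 17428528 and 19022869 counts after 22-B3, 20740041 and 22081904 after WT IL-22, and 19329695 and 19744956 after PBS.

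The segments, lists and rules were chosen with earlier results of these data known. The text names the leading 3 segments per library, the highest by mean level, and per comparison up to 5 rises and 5 falls among segments that passed without overlap of the groups (mean count of 50 or more in the higher of them). Segments kept with pooled PBS, and segments leading a family, were also named after their values were seen. The lists were plasma cell, B cell, germinal centre, immunoglobulin constant, IgA transport and B cell support, T cell, macrophage, epithelium and smooth muscle genes. Germline sequences came from GENCODE M21 and were found for 144 of 144 segments by symbol, 139 of them with the same gene ID.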

Additional observations from a re-analysis of the deposited data

How the results depend on the processing

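The number of segments called depended strongly on which libraries and which test were used, while the heavy sum passed in 1 comparison under 1 alternative and the kappa sum in none. For 22-B3 against PBS, 13 segments passed, against 31 with DESeq2, 22 with no filter on low counts, 22 with the fit limited to the 2 groups compared and 3 with pooled PBS, and 3 to 37 on leaving out a library. For WT IL-22 against PBS, 35 passed, against 59 with only the 2 groups compared, 11 with pooled PBS, and 9 to 59 on leaving out a library. For 22-B3 against WT IL-22, 3 passed, against 20 with DESeq2, 11 with no filter on low counts, and 2 to 25 on leaving out a library. Membership thresholds of 20 or 200 counts and other scalings left these counts within 1.5 times.

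The labels state no pairing by replicate number, and the main fit used the numbers only as names. Over all genes, deviations from the group means correlated at 0.04 between 22-B3 and PBS and 0.04 between WT IL-22 and PBS. Between 22-B3 and WT IL-22 the value was 0.21. These values cannot settle whether libraries of the same number were paired. With the replicate number as a block, 34 segments passed for 22-B3 against PBS, 46 for WT IL-22 against PBS and 15 between the 2 proteins, and the heavy sum of 22-B3 against WT IL-22 moved from 0.04 to -3.63e-05 on the log2 scale.

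On leaving out a library, the log2 change of the heavy sum ran from -0.20 to 0.66 for 22-B3 against PBS (passing without 22-B3 replicate 2) and from -0.44 to 0.40 for 22-B3 against WT IL-22, and that of the kappa sum from -0.42 to 0.036 and from -0.15 to 0.28. Heavy and kappa sums of WT IL-22 against PBS kept their direction, at 0.11 to 0.36 and -0.38 to -0.17. The 23 named changes kept their direction throughout, and 14 lost their call with pooled PBS. A group left with 1 library is assumed to vary like the others. The causes were not tested. Having 2 libraries per group and low counts in many segments limit all of these values.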

Other observations

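Joining and diversity segments, which flank the variable segments in the assembled gene, had few counts of their own. Joining segments had 30 and 6 counts after 22-B3, 33 and 30 after WT IL-22 and 27 and 41 after PBS, and diversity segments had at most 4 in any library.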
